A study of Mus musculus with 8 samples.

Results

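The islets of the pancreas store peptide hormones, and the genes of 8 of these hormones were examined in pancreatic islet-like endocrine cells (PILECs): Ins1, Ins2, Gcg, Sst, Ppy, Iapp, Pyy and Ghrl. The members were chosen by function, as the hormone genes of islet endocrine cells. They are 8 of 26212 annotated protein-coding, lincRNA and processed-transcript genes, the only types used. The question was whether the promoters of these genes carry H3K4me3 in PILECs, and whether the loss of menin changes that. Wild-type mouse embryonic stem cells (wt mESCs, line TC-1) and Men1-knockout mESCs (menin-null, line 3.2N), both of 129S6/SvEvTac background, were compared with PILECs grown in vitro from each of the lines, so every genotype rests on 1 cell line. From the 4 kinds of cells came 8 ChIP-Seq libraries, 1 of H3K4me3 and 1 of input chromatin for each, and no condition had a replicate. The mESCs had been kept on feeder cells and were freed of them before use, and the methods name no sorting of the PILECs. The H3K4me3 libraries held 2432377 to 3517028 tags in mESCs and 17682677 to 18773635 tags in PILECs, and the input libraries held 3744616 to 19016697 tags. A tag is a 36-bp read with 1 location in the mouse genome (mm9).

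The labels were checked against the targeted gene and against marker genes, where marked means H3K4me3 called over input by the rule given with the counts. Over the Men1 segment from exon 3 to exon 8, input held 17 tags in wt mESCs and 22 in wt PILECs, and all 4 menin-null libraries held 0, H3K4me3 and input alike. H3K4me3 held 20 tags there in wt PILECs and 0 in wt mESCs. The segment therefore does not check the label of either mESC H3K4me3 library, wt or menin-null. Of 10 ES cell genes, 9 were marked in each mESC library and 3 in each PILEC library, and their summed level, in tags per 1000000 (RPM), was 250.0 and 321 in wt and menin-null mESCs and 49.96 and 47.8 in the PILECs. Of 16 islet marker genes, which include the hormone genes, 8 and 7 were marked in mESCs and 7 and 7 in PILECs. For comparison, 53.0% and 53.2% of all genes were marked in mESCs and 53.6% and 52.9% in PILECs. Genes of other tissues were marked in PILECs as well. Neural genes were marked at 6 of 6 placed genes in both PILEC libraries, against 5 of 6 in both mESC libraries. Their summed levels were 116 and 149.6 RPM in wt and menin-null mESCs and 135 and 132 RPM in the PILECs. Fibroblast genes were marked at 6 of 7 in wt PILECs and 7 of 7 in menin-null PILECs, against 4 of 7 in both mESC libraries. Their summed levels were 93.7 and 109 RPM in wt and menin-null mESCs and 93.7 and 80.5 RPM in the PILECs. Acinar pancreas genes stood at 1 of 8 in every library, liver and visceral endoderm genes at 1 of 7, intestine genes at 2 of 5, and muscle genes at 2 of 6 in mESCs and 0 of 6 in PILECs. Amy2a5, an acinar gene, held 0 tags in every library, input included, so it could not be called. The part of such cells in the values below was not tested.

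Trimethylation of histone H3 at lysine 4 (H3K4me3) sits at the promoters of active genes and of genes poised for activity, and menin, the product of Men1, belongs to MLL complexes that place it. In the adult islet each kind of endocrine cell makes its own main hormone, namely insulin in beta cells, glucagon in alpha cells, somatostatin in delta cells, pancreatic polypeptide in PP cells and ghrelin in epsilon cells. Amylin, the product of Iapp, is stored with insulin, and peptide YY is made in some islet cells and in the gut. Mice have 2 insulin genes, where Ins2 is the ancestral gene and Ins1 a copy of it.

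The sequence before each start is shown because over all genes the share marked by H3K4me3 rises with the number of CG dinucleotides at the start, and most of the hormone genes have few. The 150 bases upstream of the start used for counting are given 5′ to 3′ in mm9, with capitals for every CG and for TATAA, or its reverse complement TTATA, in the last 50 bases. Cpe, a hormone-processing enzyme gene that was marked in all 4 kinds of cells, is given last for comparison.
Ins1 (chr19:52338663-52338812, plus strand): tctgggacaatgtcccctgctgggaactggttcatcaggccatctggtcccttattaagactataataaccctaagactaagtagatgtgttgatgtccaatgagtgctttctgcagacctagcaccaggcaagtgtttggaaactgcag
Ins2 (chr7:149865632-149865781, minus strand): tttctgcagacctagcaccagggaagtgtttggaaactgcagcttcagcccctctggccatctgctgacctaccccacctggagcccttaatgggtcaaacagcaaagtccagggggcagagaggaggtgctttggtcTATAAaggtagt
Gcg (chr2:62321708-62321857, minus strand): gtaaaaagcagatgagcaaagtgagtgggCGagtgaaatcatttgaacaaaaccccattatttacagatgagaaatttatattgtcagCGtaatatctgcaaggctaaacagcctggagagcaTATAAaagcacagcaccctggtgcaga
Sst (chr16:23890931-23891080, minus strand): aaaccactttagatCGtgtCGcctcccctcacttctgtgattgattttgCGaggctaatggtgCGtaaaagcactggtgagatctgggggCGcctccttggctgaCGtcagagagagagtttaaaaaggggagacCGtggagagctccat
Ppy (chr11:101962634-101962783, minus strand): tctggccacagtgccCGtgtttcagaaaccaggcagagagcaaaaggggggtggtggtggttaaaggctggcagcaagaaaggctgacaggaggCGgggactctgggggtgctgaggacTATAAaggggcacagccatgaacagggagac
Iapp (chr6:142246793-142246942, plus strand): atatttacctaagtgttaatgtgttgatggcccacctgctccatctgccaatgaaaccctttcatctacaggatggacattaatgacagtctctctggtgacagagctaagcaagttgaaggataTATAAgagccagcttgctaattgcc
Pyy (chr11:101969147-101969296, minus strand): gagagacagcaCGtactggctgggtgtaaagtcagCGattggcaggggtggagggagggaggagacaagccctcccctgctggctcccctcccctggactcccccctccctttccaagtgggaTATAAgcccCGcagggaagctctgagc
Ghrl (chr6:113669439-113669588, minus strand): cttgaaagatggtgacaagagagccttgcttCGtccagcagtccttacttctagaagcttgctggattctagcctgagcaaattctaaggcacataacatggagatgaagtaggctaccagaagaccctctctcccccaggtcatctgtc
Cpe (chr8:67171838-67171987, minus strand): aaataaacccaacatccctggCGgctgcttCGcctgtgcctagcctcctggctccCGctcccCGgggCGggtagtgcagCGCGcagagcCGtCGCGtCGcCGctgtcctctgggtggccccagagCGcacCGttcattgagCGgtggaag
These stretches held 0 CG in Ins1, Ins2 and Iapp, 1 in Ghrl, 2 in Gcg and Ppy, 3 in Pyy and 7 in Sst, against 15 in Cpe. TATAA on either strand lay in the last 50 bases of 5 of the 8 hormone genes (Ins2, Gcg, Ppy, Iapp and Pyy) and of 6.39% of all genes. The letters TAAT or ATTA, the core of homeodomain sites, occurred within 150 bases of 5 of the 8 (Ins1, Ins2, Gcg, Sst and Iapp) and of 35.2% of all genes, and a TAAT match can share letters with a TATAA match. The palindrome TGACGTCA, the cyclic AMP response element, stood 48 bases before the start of Sst and in 1.65% of all genes. These matches are letters in a window and show no binding.

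All 8 starts held input tags in PILECs, 7 to 30 in wt and 11 to 29 in menin-null cells. Of the 36-bp sequences within 1 kb of a start, 97.4% in Ppy to 100% in Pyy occurred once in mm9 as an exact match. Near copies that differ at a few bases were not looked for, so fewer bases may give a unique tag. The annotated starts of Ins1 and Ins2 are not at matching places. A shared run of 22 bases lay from 42 bases before the start of Ins1 and from 150 bases before that of Ins2. Only 150 upstream bases were compared, so the run may begin further upstream. A TATAA match of Ins1 lay 97 bases downstream of its annotated start, well inside the window. For 7 of the 8 genes a RefSeq promoter (GRCm38.p6) was found in mm9, and its nearest start lay at -26 bases from the start used in Ins1, -3 in Gcg, 2 in Iapp, -10 in Ghrl and 0 in Sst, Ppy and Pyy, where negative is upstream. Another RefSeq start of Ghrl lay 1752 bases downstream of the start used, outside the window, and was not counted.

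Tags within 1 kb of each start were counted, each moved to the middle of a 250-bp fragment, and given per 1000000 tags of the library (RPM). Where counts follow each other for mESCs or for PILECs, wt is first and menin-null second. All windows have the same length, so levels need no correction for length. Input still differed between the hormone genes, from 0.368 RPM in Ins2 to 1.58 RPM in Ghrl in wt PILECs. A gene was called marked where its H3K4me3 was at least 2-fold over the input of the same cells, after the RPM worth 1 tag in the smaller library was added to both, and where the exact 95% limits of the ratio lay above 1. Since every condition had 1 library, no test between conditions exists, no p-value is given, and all limits cover counting error only.

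None of the 8 hormone genes was marked in PILECs of either genotype. Of all genes, 53.6% were marked in wt PILECs and 52.9% in the menin-null ones. In wt mESCs, where 53% of all genes were marked, no hormone gene was either. The hormone genes together held 105 H3K4me3 tags against 135 input tags in wt PILECs, a ratio of 0.788 (95% limits 0.605 to 1.02), and 103 against 146 in menin-null PILECs, a ratio of 0.723 (0.556 to 0.937). Scaled by the tags of 10-kb bins away from annotated starts instead of by all tags, these ratios turned to 1.47 (1.13 to 1.91) and 1.27 (0.974 to 1.64), so the direction against input depended on the scaling. The median H3K4me3 of marked genes was 30.6 RPM in wt PILECs. The highest hormone gene there, Sst, stood at 1.28 RPM, and its upper limit of 1.90 RPM was 6.21% of that median. In bulk chromatin a mark in few of the cells and a low level in all of them cannot be told apart. The call depended on that scaling for 3 genes, since Ins2, Sst and Pyy passed the threshold in wt PILECs and Ins2 in menin-null PILECs, where 57.2% and 56.8% of all genes then passed.

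**Figure D1:**
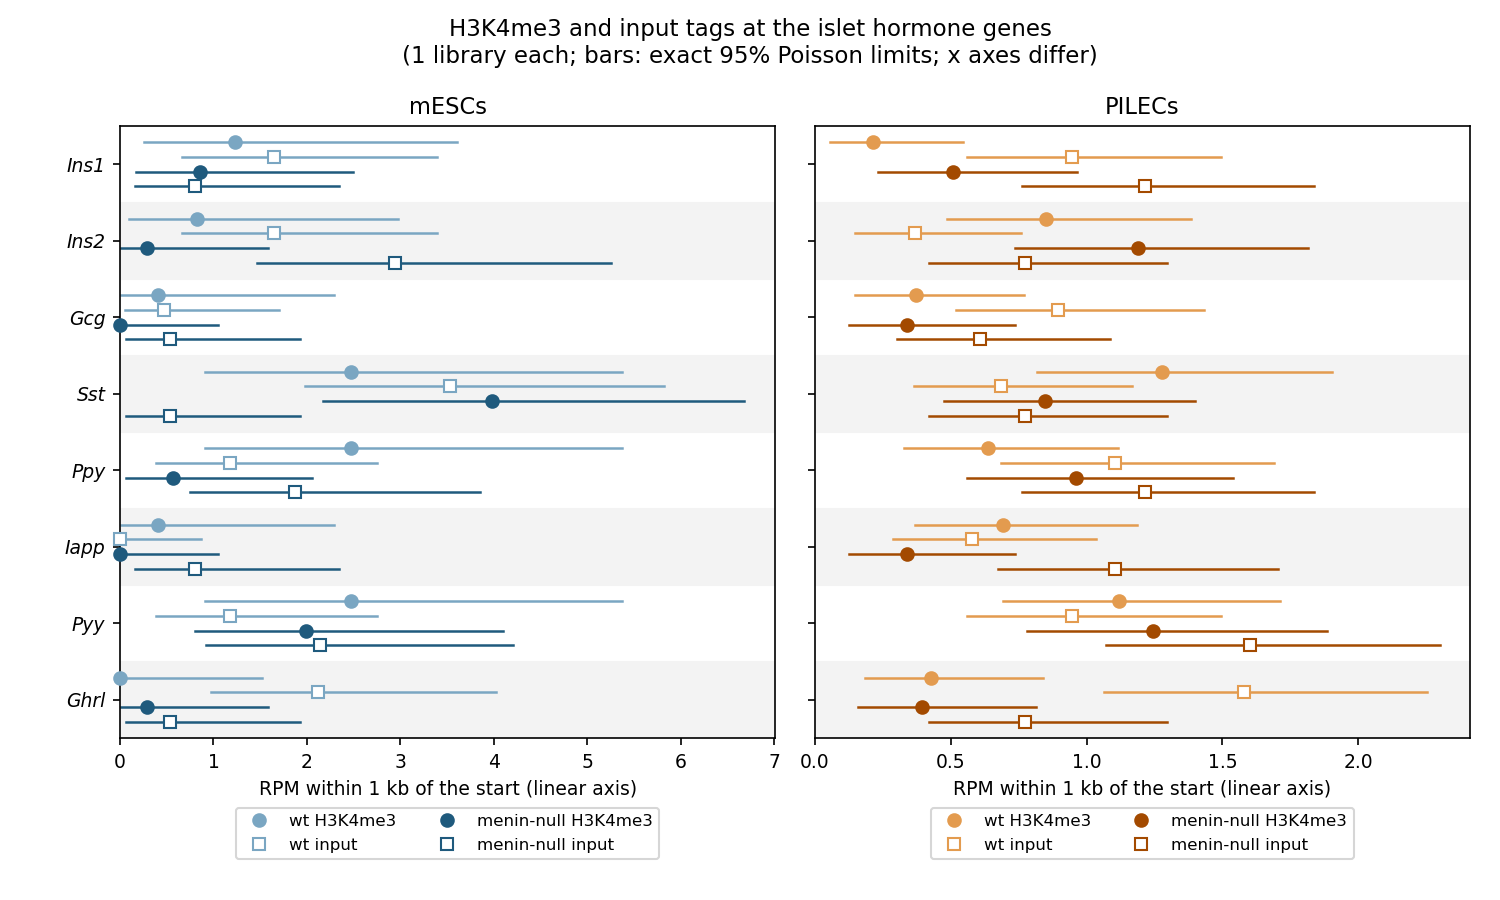
RPM within 1 kb of the start of each hormone gene (rows) in mESCs (left) and PILECs (right), with filled circles for H3K4me3, open squares for input, light colours for wt and dark colours for menin-null cells, and bars for exact 95% Poisson limits of 1 library. In PILECs no H3K4me3 point lies above 1.28 RPM. The H3K4me3 point lies below its input in 4 of 8 genes in wt PILECs (3 of 8 with background scaling). In menin-null PILECs it does in 6 of 8 (4 of 8 with background scaling).

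The insulin genes were low in all H3K4me3 libraries. Ins1 (chromosome 19, plus strand, start at 52338813) held 3 and 3 H3K4me3 tags in mESCs and 4 and 9 in PILECs, beside 7 and 3 input tags in mESCs and 18 and 22 in PILECs. In both kinds of PILECs Ins1 held fewer H3K4me3 tags than input tags, at 0.225 of the input (0.0554 to 0.683) in wt and 0.419 (0.170 to 0.947) in menin-null cells. Both passed as lower than input, but neither did within 500 bp, with background scaling or after thinning, and the menin-null call was also lost without duplicates, with unmoved tags, at 3-fold and with input within 5 kb. Lower calls were made for 8.32% of all genes in wt PILECs and for 6.41% in menin-null PILECs.

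Ins2 (chromosome 7, minus strand, 149865631) held 2 and 1 H3K4me3 tags in mESCs and 16 and 21 in PILECs, beside 7 and 11 input tags in mESCs and 7 and 14 in PILECs. It was the hormone gene with the highest ratio in PILECs, at 2.32 (0.901 to 6.65) in wt and 1.54 (0.745 to 3.27) in menin-null cells, and neither lower limit reached 1. In menin-null mESCs it passed as lower than input, at 0.0968 of it (0.00225 to 0.666), among 2.22% of all genes, a call that was lost within 500 bp, with background scaling, at the 5′ end of the gene, after thinning, with input within 5 kb and with exact starts. Within 500 bp of the start Ins2 held 16 tags against 5 input tags in menin-null PILECs, a ratio of 3.28 (1.15 to 11.4) that passed the threshold, and 4 against 5 in wt PILECs, where it did not. A transcript of Ins2 that starts upstream at 149885415 had 8 and 12 H3K4me3 tags in wt and menin-null PILECs and 27 and 18 input tags. Scaled by all tags, H3K4me3 was thus below input at that start, unlike at the one used. Background scaling was not tried at that start.

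Glucagon, the hormone that raises blood glucose, comes from Gcg (chromosome 2, minus strand, 62321707), which held 1 and 0 H3K4me3 tags in mESCs and 7 and 6 in PILECs. Its input held 2 and 2 tags in mESCs and 17 and 11 in PILECs. The ratio was 0.417 (0.146 to 1.06) in wt and 0.559 (0.170 to 1.65) in menin-null PILECs, below input in both and not past the threshold in either. The 0 tags in menin-null mESCs have an exact upper limit of 1.05 RPM.

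Sst (chromosome 16, minus strand, 23890930) encodes somatostatin, which holds back the release of insulin and glucagon. It held 6 and 14 H3K4me3 tags in mESCs and 24 and 15 in PILECs, beside 15 and 2 input tags in mESCs and 13 and 14 in PILECs. Sst in menin-null mESCs was the 1 marked case among the hormone genes, at 7.45 times its input (1.71 to 67.6), where 53.2% of all genes were marked. That call rests on an input count of 2, and the input of Sst itself was lower in menin-null than in wt mESCs, at 0.151 (0.0168 to 0.650). Against wt mESCs the H3K4me3 of Sst in menin-null mESCs was 1.61-fold (0.583 to 5.12), which was not called. Over input Sst stood at 1.87 (0.915 to 3.999) in wt PILECs and at 1.10 (0.494 to 2.46) in the menin-null ones.

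The place of the H3K4me3 tags of Sst differed between libraries. Within 500 bp were 6 of its 6 tags and 13 of its 14 tags in mESCs, and 18 of 24 and 8 of 15 in PILECs. Of the input tags, 6 of 15, 2 of 2, 8 of 13 and 8 of 14 lay within that distance. In wt PILECs the first 500 bases downstream of the start alone held 14 tags, against 2 in the input, and in menin-null PILECs they held 6 against 6. The ratio within 500 bp in wt PILECs was 2.28 (0.943 to 6.06), which was not called.

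Ppy and Pyy encode peptides of the neuropeptide Y family and lie next to each other on chromosome 11, both on the minus strand, with starts at 101962633 and 101969146. Ppy held 6 and 2 H3K4me3 tags in mESCs and 12 and 17 in PILECs, beside 5 and 7 input tags in mESCs and 21 and 22 in PILECs. In PILECs it was below its input in both genotypes, at 0.579 (0.260 to 1.23) and 0.792 (0.395 to 1.56), and above it with background scaling, at 1.08 and 1.39. Pyy held 6 and 7 H3K4me3 tags in mESCs and 21 and 22 in PILECs, beside 5 and 8 input tags in mESCs and 18 and 29 in PILECs. Its ratio was 1.182 (0.5995 to 2.35) in wt and 0.777 (0.426 to 1.401) in menin-null PILECs, where it turned to 1.36 with background scaling. Within 500 bp of the start, Pyy held 12 tags against 3 input tags in wt PILECs and passed the threshold at 4.05 (1.09 to 22.4), and in menin-null PILECs it held 9 against 11. In menin-null mESCs it held 0 against 6 and passed as lower than input, with an upper limit of 0.904, among 0.58% of all genes.

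Iapp (chromosome 6, plus strand, 142246943) encodes amylin. It held 1 and 0 H3K4me3 tags in mESCs and 13 and 6 in PILECs, beside 0 and 3 input tags in mESCs and 11 and 20 in PILECs. H3K4me3 and input were close in wt PILECs, at 1.197 (0.495 to 2.95), and in menin-null PILECs Iapp passed as lower than input, at 0.307 (0.101 to 0.794), a call that was lost within 500 bp, with background scaling, at 3-fold and with input within 5 kb.

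Ghrl (chromosome 6, minus strand, 113669438) encodes ghrelin, the ligand of the receptor Ghsr. It held 0 and 1 H3K4me3 tags in mESCs and 8 and 7 in PILECs, beside 9 and 2 input tags in mESCs and 30 and 14 in PILECs. Ghrl passed as lower than input in wt mESCs, where the upper limit was 0.885 and lower calls were made for 1.04% of all genes, and in wt PILECs, at 0.270 (0.107 to 0.603). The wt mESC call was lost within 500 bp, with background scaling, at the 5′ end of the gene, at the start with most tags, after thinning and with exact starts, and the wt PILEC call with background scaling. In menin-null PILECs the ratio was 0.512 (0.175 to 1.36). Its other annotated starts at 113669423 and 113669874 held 9 H3K4me3 tags each in wt PILECs.

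**Figure D2:**
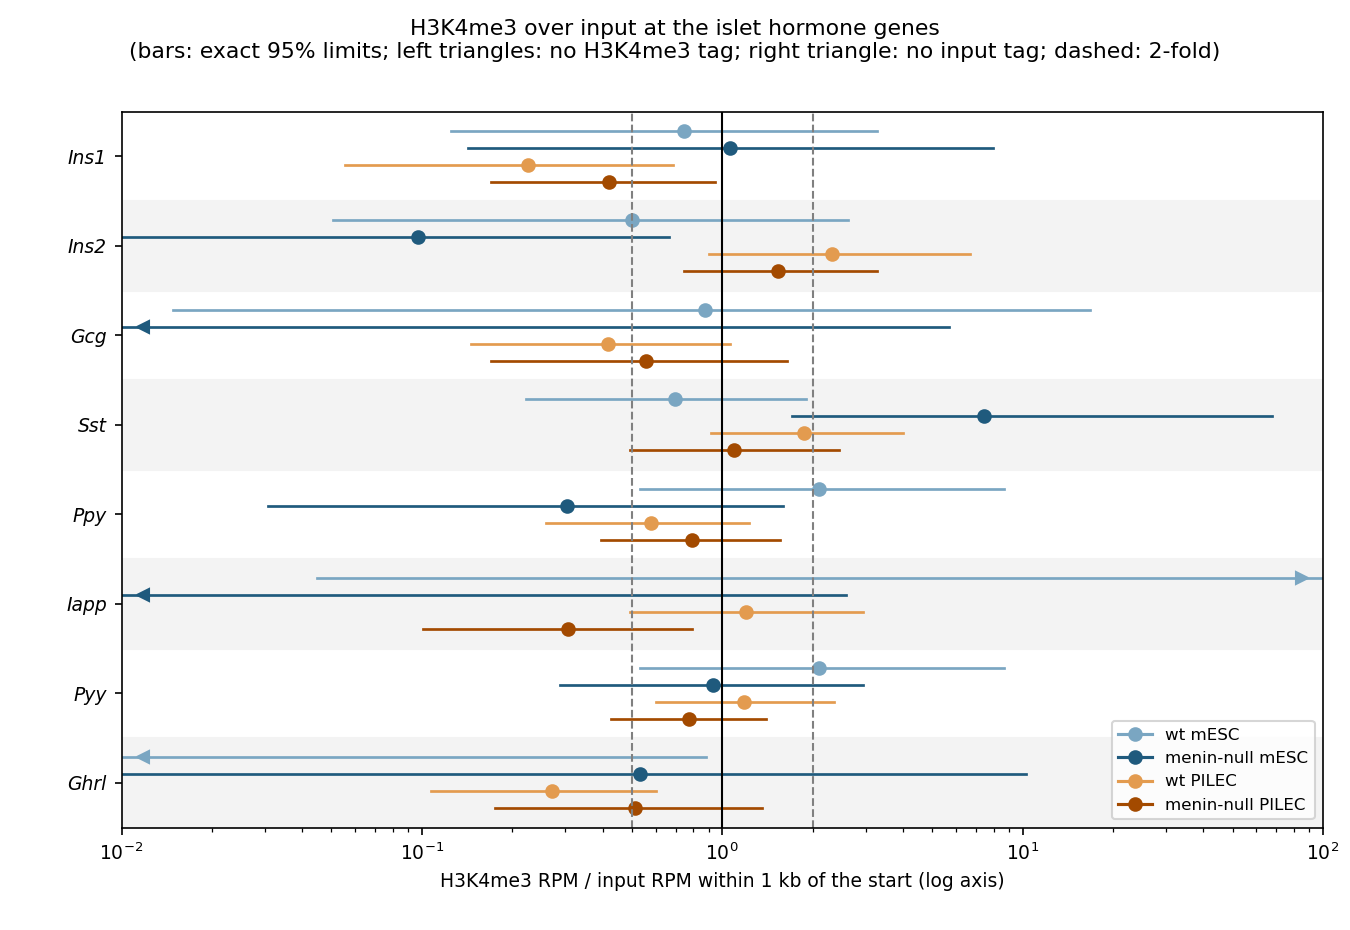
Ratio of H3K4me3 RPM to input RPM within 1 kb of the start of each hormone gene (log axis), with a point for each of the 4 kinds of cells and bars for exact 95% limits, the full line at 1 and dashed lines at 2-fold. The limits of Sst in menin-null mESCs (1.71 to 67.6) are the only ones that lie wholly above 1, and in PILECs the limits of 6 genes reach above and below 1 in wt and in menin-null cells.

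By the order of H3K4me3 levels in wt PILECs, Sst (1.28 RPM) came first, then Pyy (1.12), Ins2 (0.852), Iapp (0.692), Ppy (0.639), Ghrl (0.426), Gcg (0.373) and Ins1 (0.213). Counts of neighbours in that order differed by 1 to 5 tags, and each pair had overlapping 95% limits. In menin-null PILECs the order was Pyy (1.24 RPM), Ins2 (1.19), Ppy (0.961), Sst (0.848), Ins1 (0.509), Ghrl (0.396) and then Gcg and Iapp at 0.339 each.

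No hormone gene was called higher or lower in menin-null cells. In PILECs 1.27% of all genes were called higher and 1.28% lower in menin-null than in wt cells, and in mESCs 0.473% and 0.691%. The hormone genes together changed 1.04-fold in PILECs (0.786 to 1.38) and 0.775-fold in mESCs (0.435 to 1.39). Of single genes in PILECs, Ins1 had the largest ratio of menin-null to wt H3K4me3, at 2.39 (0.667 to 10.6) from 9 and 4 tags, and Iapp the smallest, at 0.490 (0.153 to 1.38) from 6 and 13 tags. The limits of 6 of the 8 genes in PILECs included a 2-fold rise and those of 4 (Gcg, Sst, Iapp and Ghrl) a 2-fold fall, so changes of that size were not excluded. Within 500 bp of the start Ins2 passed as higher in menin-null PILECs, with 16 tags against 4, among 0.958% of all genes. Ppy passed as lower in menin-null mESCs with unmoved tags and within 2 kb, among 0.694% and 1.1% of all genes.

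From mESCs to PILECs no hormone gene was called higher, though the few mESC tags leave wide limits. There were 0 such calls in either genotype, where 4.14% of all genes were called higher in wt and 3.35% in menin-null cells. Ins2 in menin-null cells had a ratio of 4.18 (0.672 to 173) from 21 and 1 tags, and in wt cells the limits reached 40.9 in Gcg and 71.6 in Iapp, so a rise in these genes was not excluded. The hormone genes together had a ratio of PILECs to mESCs of 0.544 (0.349 to 0.879) in wt and 0.732 (0.478 to 1.15) in menin-null cells. Their summed input was lower in PILECs as well, at 11.8 RPM in wt mESCs and 7.10 RPM in wt PILECs. In menin-null cells it was 10.1 and 8.06 RPM. Over input the sum stood at 0.873 in wt mESCs and 0.788 in wt PILECs, and at 0.785 and 0.723 in menin-null cells. Ppy was called lower in wt PILECs than in wt mESCs, at 0.259 (0.0900 to 0.841) from 12 and 6 tags, and Sst was called lower in menin-null PILECs than in menin-null mESCs, at 0.213 (0.0959 to 0.477) from 15 and 14 tags. Lower calls were made for 9.86% of all genes in wt and for 14.2% in menin-null cells. The call of Ppy was lost within 500 bp and within 2 kb of the start, at 3-fold and after thinning to the smallest library. Within 2 kb Ins1 was called lower in wt PILECs instead. The mESC libraries are shallower, and their floor of 3 tags equals 1.23 RPM in wt and 0.853 RPM in menin-null cells, above the PILEC level of 7 and 5 of the 8 hormone genes.

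**Figure D3:**
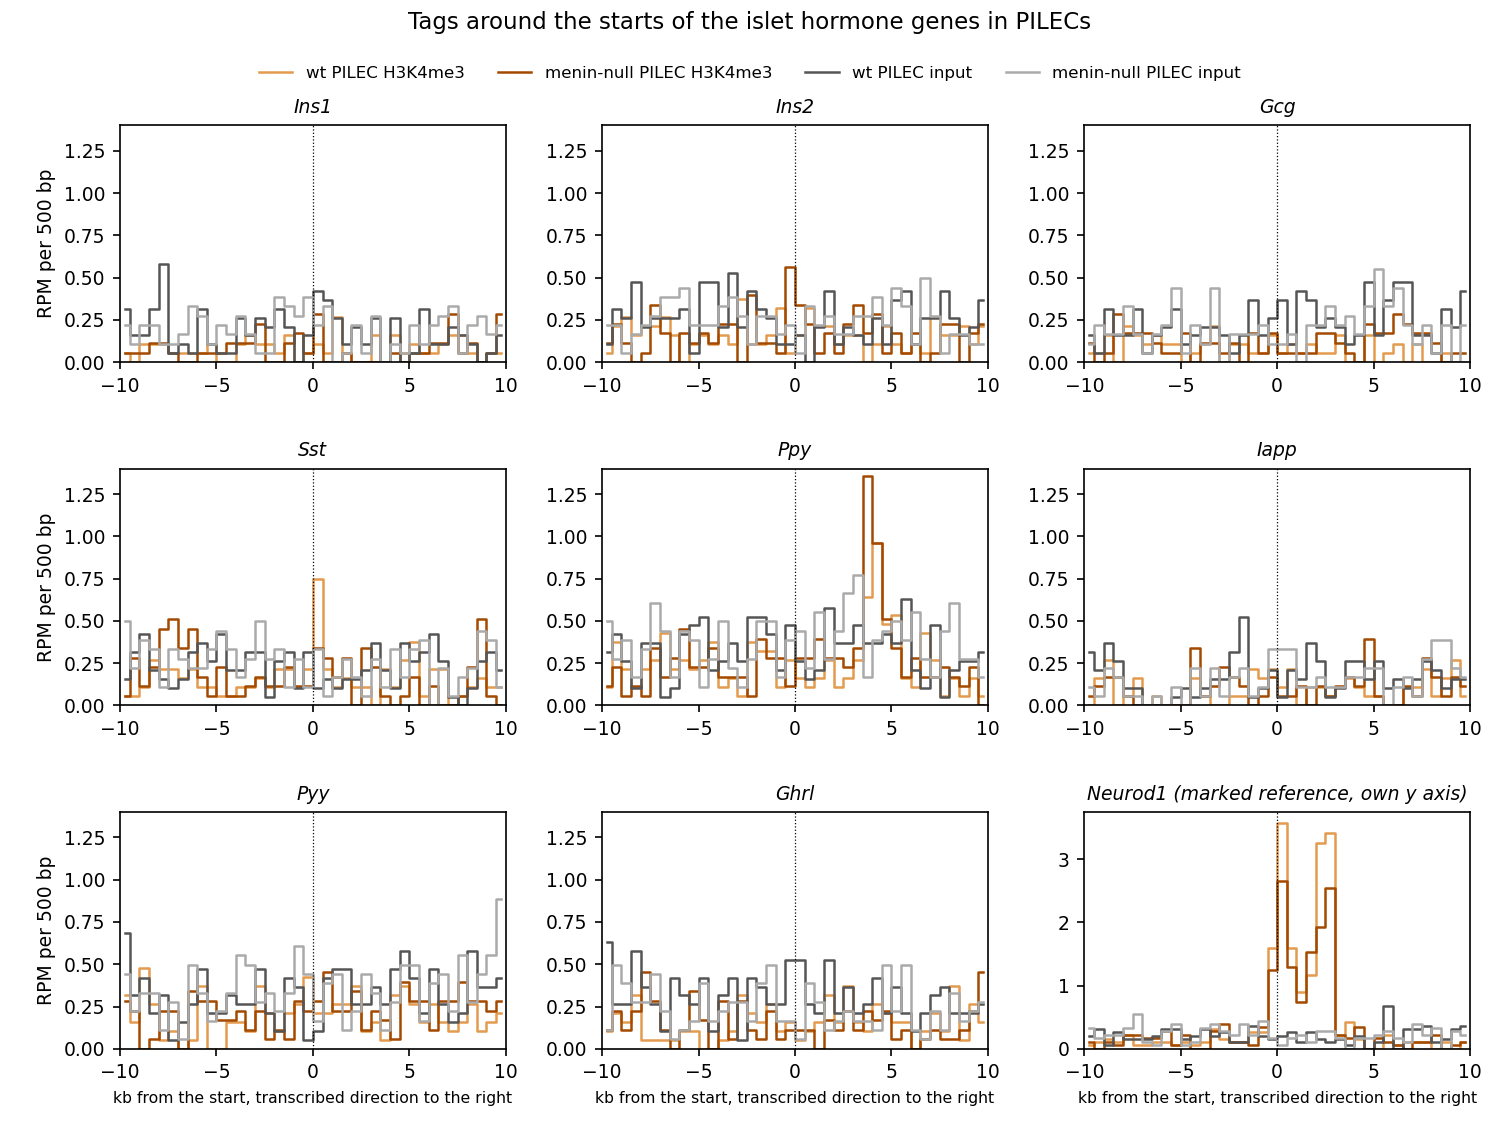
RPM in 500-bp bins from 10 kb upstream (left) to 10 kb downstream (right) of the start of each hormone gene in PILECs, with H3K4me3 in light (wt) and dark (menin-null) orange and input in dark (wt) and light (menin-null) grey. The bins at the hormone gene starts reach at most 0.746 RPM, in Sst in wt PILECs, while Neurod1, a transcription factor gene shown on its own axis, reaches 3.57 RPM.

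No other annotated protein-coding, lincRNA or processed-transcript gene started within 5 kb of a hormone gene start. Other gene types were not looked at. Runs of enriched windows, at least 600 bp of 200-bp windows with 10 or more tags each, were looked for around each gene in PILECs. In wt PILECs the nearest run lay 11.4 kb from Ppy and 17.9 kb from Pyy at Mpp2, 19.8 kb from Ins2 at Igf2 and Igf2as, and 20.4 kb from Ghrl at Sec13. It lay 46.9 kb from Iapp at Pyroxd1, 89.7 kb from Gcg at Fap, 91.7 kb from Sst near Bcl6 and 773 kb from Ins1 at Xpnpep1. In menin-null PILECs the nearest runs were at the same genes save for Gcg, where the run at Gca lay 180 kb away, and Ins2, where it lay 18.4 kb away at Igf2. In wt PILECs the hormone genes were thus 11.4 to 773 kb away from the nearest enriched run.

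Many, but not all, other genes that an islet cell needs were marked in the PILEC libraries, and most of those were marked in mESCs as well. Of 15 genes for processing hormones and for the secretory granule, 10 and 11 were marked in mESCs and 13 in each kind of PILECs. The share of all genes marked was 53.0% and 53.2% in mESCs and 53.6% and 52.9% in PILECs. The highest in wt PILECs were Cpe (39 RPM), which trims prohormones, Pam (33.4 RPM), which amidates peptides, and Pcsk2 (25.1 RPM), a prohormone convertase. The lowest were Slc30a8 (0.266 RPM), the zinc transporter of insulin granules, Mboat4 (0.639 RPM), the enzyme that acylates ghrelin, and Scg2 (4.63 RPM), a granin, of which only Scg2 was marked. From mESCs to PILECs 5 of the 15 were called higher and 1 (Slc30a8) lower in wt cells. In menin-null cells 3 were called higher and 0 lower, with Scg2, Scg3 and Scg5 higher in both genotypes. Of all genes, 4.14% were called higher and 9.86% lower in wt cells, and 3.35% and 14.2% in menin-null cells. Of 16 islet transcription factor genes, 12 and 11 were marked in mESCs and 13 and 13 in PILECs, with Insm1 (18.1 RPM) and Mnx1 (8.79 RPM) among the highest in wt PILECs. Pax4 (0.639 RPM), Hhex (0.692 RPM) and Pdx1 (1.07 RPM), a regulator of the insulin genes, were lowest and were not marked in PILECs. From mESCs to PILECs 2 of the 16 were called higher and 7 lower in wt cells, and 1 higher and 5 lower in menin-null cells, with Pdx1, Neurog3, Isl1 and Mafa lower in both. The summed level of the 16 was 159 RPM in wt mESCs and 110 in wt PILECs. Their median input was lower in PILECs too, at 2.00 RPM in wt mESCs and 0.762 RPM in wt PILECs. In menin-null cells it was 1.74 and 0.966 RPM. Calls between mESCs and PILECs compare H3K4me3 levels alone, not their ratios to input.

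The list of receptors of the same hormones also took in the related receptor Igf1r and the accessory protein genes Ramp1, Ramp2 and Ramp3. Of its 19 genes, 8 were marked in wt mESCs and 12 in each of the other 3 kinds of cells. The share of all genes marked was 53.0% and 53.2% in mESCs and 53.6% and 52.9% in PILECs. But in wt mESCs 12 of the 19 were marked with background scaling and 13 with input within 5 kb, beside 56.1% and 55.5% of all genes. Igf1r (60.7 RPM), Insr (46.8 RPM) and Sstr2 (18.4 RPM) were highest in wt PILECs, and Calcr (0.426 RPM), Ppyr1 (0.639 RPM) and, level with each other, Sstr3 and Sstr5 (0.799 RPM each) were lowest. From mESCs to PILECs 2 of the 19 genes, Sstr1 and Ghsr, were called higher and 6 lower in wt cells, and 0 higher and 6 lower in menin-null cells. The 6 were Gcgr, Glp1r, Sstr4, Sstr5, Npy5r and Ramp1 in both. Of all genes, 4.14% were called higher and 9.86% lower in wt cells, and 3.35% and 14.2% in menin-null cells. Ramp1 was marked in no kind of cells. The input of all 6 genes called lower was itself lower in PILECs than in mESCs, in both genotypes. In wt mESCs and wt PILECs it was 4.94 and 0.684 RPM in Ramp1, 5.65 and 1.31 RPM in Glp1r, and 3.53 and 0.841 RPM in Sstr4. The median input of the 19 genes was 2.35 RPM in wt mESCs and 1.05 RPM in wt PILECs. These calls compare H3K4me3 levels alone, so they do not show a fall over input. Hormone genes of other organs were closer to those of the islet. Of 25 such genes 6 and 5 were marked in mESCs and 4 and 5 in PILECs, where other settings gave 3 to 6 in wt and 3 to 8 in menin-null cells, and their median in wt PILECs was 0.692 RPM, beside 0.666 RPM for the islet hormones. The highest were Calca (9.43 RPM), Npy (6.76 RPM) and Crh (6.34 RPM), and the lowest Cga (0.213 RPM), with Vip, Tshb, Prl and Fshb level at 0.320 RPM. All 10 constitutive genes were marked in all 4 kinds of cells, with a median of 44.0 RPM in wt PILECs. These are counts over lists chosen by function, and no test of a list was made.

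**Figure D4:**
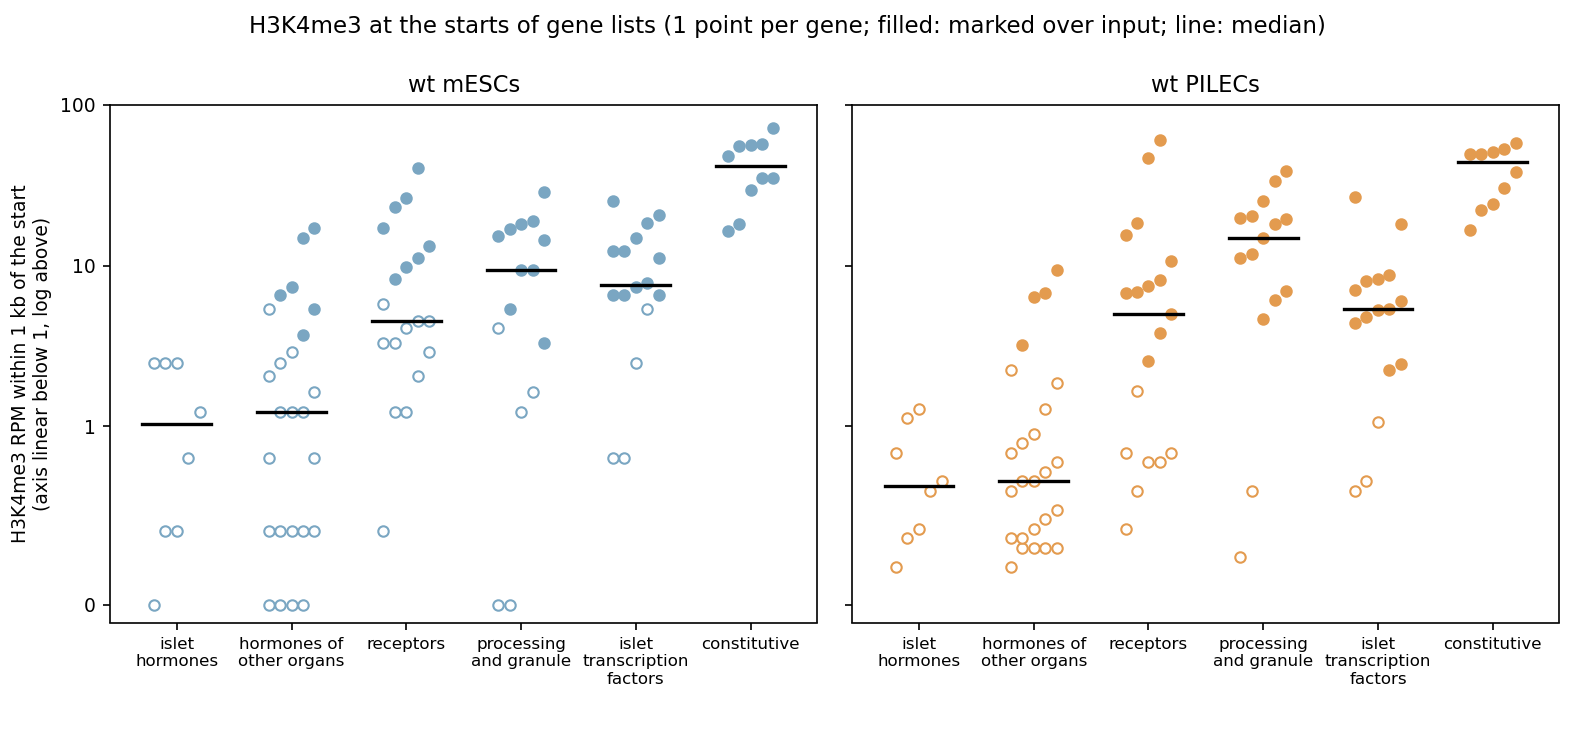
H3K4me3 RPM within 1 kb of the start (linear below 1, log above) in wt mESCs (left) and wt PILECs (right) for 6 gene lists, 1 point per gene, filled where the gene was marked over input, with the median as a line. All 8 islet hormone genes are open in both panels, and in wt PILECs 13 of 15 processing and granule genes and 13 of 16 islet transcription factors are filled.

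Of the 8 hormone genes, 7 had fewer CG within 1 kb of the start than the median gene and Pyy had as many, a property that the choice of genes did not use. They held 13 CG in Ins1, 14 in Iapp, 15 in Ghrl, 17 in Ins2, 26 in Gcg and Ppy, 48 in Sst and 54 in Pyy. The median of all genes was 54, that of the processing and granule genes 65, that of the islet transcription factors 93 and that of the constitutive genes 96. Hormone genes of other organs had a median of 31.

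All genes were then split into 5 classes of near equal size by that number. In the class with 0 to 18 CG, 0.971% of 5354 genes were marked in wt PILECs, and Ins1, Ins2, Iapp and Ghrl belonged to it. With 19 to 37 CG, 9.09% of 5260 genes were marked, and Gcg and Ppy belonged to it. With 38 to 71 CG, 65.3% of 5205 genes were marked, and Sst and Pyy belonged to it. With 72 to 104 CG 95.8% of genes were marked and with 105 to 311 CG 99.1%, and no hormone gene belonged to these classes. The shares in menin-null PILECs were 0.897%, 8.16%, 63.7%, 94.9% and 98.9%, in the same order.

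In wt PILECs Sst and Pyy were thus unmarked in a class where 65.3% of genes were marked, though both passed with background scaling and Pyy within 500 bp. The other 6 were unmarked in classes where at most 9.09% were marked, though Ins2, in the lowest class, passed with background scaling. The 3 unmarked islet transcription factors held 11 CG in Pax4, 36 in Hhex and 70 in Pdx1. The unmarked granule genes held 14 in Slc30a8 and 31 in Mboat4, the same number as the marked Scg2. These numbers describe how CG content and the mark go together over all genes, and their part in the values of the hormone genes was not tested.

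**Figure D5:**
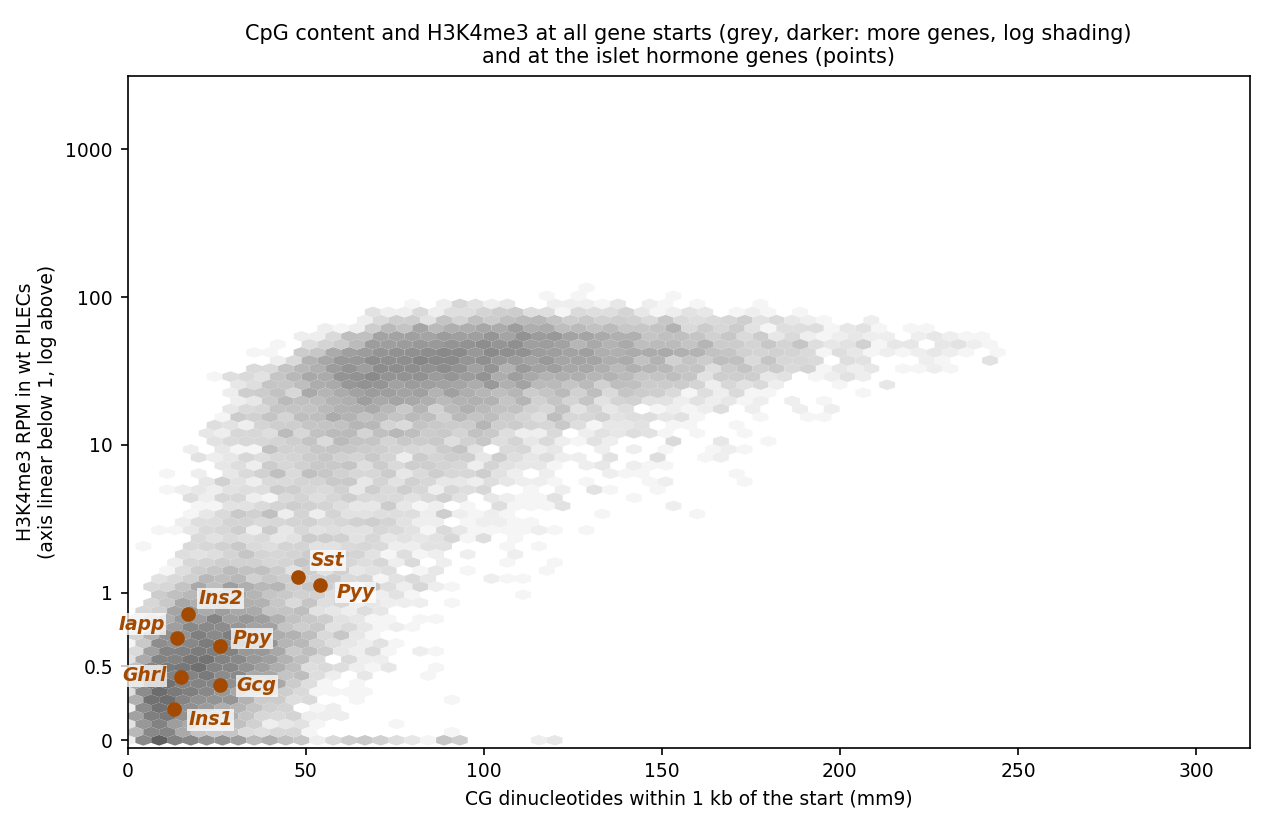
Number of CG dinucleotides within 1 kb of the start (x axis) against H3K4me3 RPM in wt PILECs (y axis, linear below 1, log above) for all 26212 genes as grey hexagons, darker with more genes, and for the 8 hormone genes as labelled points. The hormone genes lie between 13 and 54 CG and at or under 1.28 RPM, while genes with over 71 CG mostly lie above 10 RPM.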

How the data were processed

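H3K4me3 and input tags of 4 kinds of cells were analysed, 1 library each. The authors mapped 36-bp Illumina reads to mm9 and kept those with 1 location, and the deposited lines hold tag positions with no normalization, so counts here are numbers of tags per window. Each deposited line also has a score, which was not used. Between 1.04% and 1.81% of the tags of a library listed more than 2 mismatches and were kept, as were tags sharing a position and strand (4.17% to 11.5% in H3K4me3 libraries).

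Tags were counted with numpy 2.4.6 under Python 3.11.15, limits came from scipy 1.17.1, tables from pandas 2.3.3 and plots from matplotlib 3.10.9. Gene starts came from the protein-coding, lincRNA and processed-transcript genes of GENCODE vM1 (mm9, 75434 distinct starts), and other gene types were left out. Starts within 100 bp of each other were joined, and the start with most transcripts was used, ties going upstream. The rule first written joined no starts and would have put Ins2 at a start upstream, at 149885415. Joining was added once the annotation was seen, and the values without it are in the closing section. Ratios carry Clopper-Pearson limits of the conditional binomial, checked on simulated data. Other settings tried numbered 11 listed at the start and 2 added after the files were seen. The members, lists and CG classes were chosen with earlier results of these data known. Named were all 8 members, the 3 highest and 3 lowest genes of each list in wt PILECs, Neurod1 and other references, and the nearest genes, save 1 gene that is not reported here. Scg3, Scg5, the genes called between mESCs and PILECs in other lists, and the distances within 500 bp were singled out after their values were seen. The study's arrays, RT-PCR and ChIP-PCR were not used here.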

Additional observations from a re-analysis of the deposited data

How the results depend on the processing

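No paired analysis was possible because each kind of cells gave 1 library per antibody, and no library could be left out. Counting error alone limits a hormone gene with the 0 to 24 H3K4me3 tags seen here, and the mESC libraries are the shallower ones. Of 800 member values recomputed under 13 alternatives, 748 kept their side of the threshold, 31 lost the call, 19 gained it and 2 went from no call to a call in the opposite direction. Most values had no call as reported, so most of the 748 are values that stayed without one. The 1.5-fold and 3-fold settings changed the threshold alone, not the values. Of the 748, 72 changed direction without a call, 18 of them within 500 bp, 15 within 2 kb and 8 with background scaling. The 2 opposite calls were of Ins2 over input in wt PILECs, at -1.62 on the log2 scale with the added rate, when the 5′ end of the gene or exact, unjoined starts put its start upstream of that used.

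Members marked over input, 0 in wt and 0 in menin-null PILECs, numbered 1 and 1 within 500 bp of the start (Pyy at 1.71 and Ins2 at 1.53 on the log2 scale, with 53.7% and 53% of all genes) and 3 and 1 with background scaling (Ins2 1.85, Sst 1.67 and Pyy 1.06 in wt, Ins2 1.32 in menin-null PILECs, with 57.2% and 56.8% of all genes). Before the added rate, background scaling moved log2 ratios by 0.90 in wt and 0.81 in menin-null PILECs for every gene, and the ratio of the summed tags then was 1.47 (1.13 to 1.91) in wt and 1.27 (0.974 to 1.64) in menin-null PILECs. Within 500 bp, 1 member (Ins2, 1.83) was higher in menin-null than in wt PILECs, against 0, with 0.958% of all genes.

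Members lower than input in wt mESCs fell from 1 to 0 within 500 bp, with background scaling, with the 5′ end of the gene, with the start of most tags, with thinning and with exact starts. The share of all genes there went from 1.04% to 0.134%, 0.0534%, 1.04%, 0.9%, 0.95% and 1.06%, in the same order. In menin-null mESCs they went from 1 to 2 with unmoved tags and within 2 kb, and to 0 with background scaling, the 5′ end of the gene, thinning, input within 5 kb and exact starts. The share of all genes there went from 2.22% to 2.27%, 6.07%, 0.0458%, 2.17%, 0.839%, 2.38% and 2.22%, in the same order. Within 500 bp the call of Ins2 was lost and Pyy was called instead, where the share was 0.58%. In wt PILECs they went from 2 to 1 within 500 bp and with thinning, 0 with background scaling and 4 with input within 5 kb, and to 3 with unmoved tags and within 2 kb (Gcg added) and with the 5′ end of the gene and exact starts (Ins2 added). The share of all genes lower than input there moved too, from 8.32% to 3.95% within 500 bp, 0.382% with thinning, 0.423% with background scaling, 10.8% with input within 5 kb and 12.1% within 2 kb. It was 8.22% with unmoved tags, 8.28% with the 5′ end of the gene and 8.41% with exact starts. In menin-null PILECs they went from 2 to 1 without duplicates, with unmoved tags, with thinning and with input within 5 kb. They went to 0 within 500 bp, with background scaling and at 3-fold, and to 3 within 2 kb (Ghrl added). With input within 5 kb Ins1 and Iapp both lost their calls and Ghrl was called instead. The share of all genes went from 6.41% to 3.11% within 500 bp, 0.519% with background scaling and 9% within 2 kb. It was 8.18% with input within 5 kb, 2.64% at 3-fold and 0.332% with thinning. Without duplicates it was 4.35%, and with unmoved tags 6.47%. Members lower in menin-null than in wt mESCs went from 0 to 1 with unmoved tags and within 2 kb (Ppy in both). The share of all genes went from 0.691% to 0.694% and 1.1%. Members lower in wt PILECs than in wt mESCs went from 1 to 0 within 500 bp, at 3-fold and with thinning. Within 2 kb Ppy lost its call and Ins1 was called instead, at -1.31 on the log2 scale. The share of all genes went from 9.86% to 10.4% within 500 bp, 6.18% at 3-fold, 7.88% with thinning and 10.2% within 2 kb. The cause was not tested.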

Other observations

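Of 15 genes whose RNA the methods list for RT-PCR of islet cells, 4 of them hormone genes given above, 7 were marked in wt mESCs and 6 in each of the other 3 kinds of cells. The share of all genes marked was 53.0% in wt mESCs and 52.9% to 53.6% in the others. The 6 in wt PILECs were transcription factor genes, with Isl1 (8.20 RPM) and Mafa (7.99 RPM) among the highest. Amy2a5 was at 0 tags in all 8 libraries, input included, so it could not be called and counts here as unmarked.

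Downstream of Ppy, away from any start of the gene types used, H3K4me3 lay over input in both kinds of PILECs and in menin-null mESCs. The place was singled out after its values were seen, and no limits were computed for it. The 2 bins of 500 bp from 3.5 to 4.5 kb downstream of its start held 12 and 18 tags in wt PILECs and 24 and 17 in menin-null PILECs, against 7 and 7 input tags in wt and 3 and 7 in menin-null cells. In mESCs the same bins held 4 and 2 tags in wt and 7 and 5 in menin-null cells, against 1 and 5 and 1 and 2 input tags. The bins of wt mESCs thus went both ways, and the excess over input was not particular to PILECs.

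The genes with H3K4me3 levels most like those of Sst over the 4 kinds of cells, by Euclidean distance of log2(RPM + 0.5), were Gm17657 at 0.215, C77080 at 0.252 and 4833412C05Rik at 0.258, and 30 genes lay within 0.5.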
